A study of Mus musculus with 24 samples.

Results

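The RNA of 6 4T1 tumors was compared between mice treated with 3B10, a mouse monoclonal antibody against pleiotrophin (PTN), and mice treated with C44, a mouse IgG used as the control antibody. The samples were chosen by their labels as all 4T1 tumors of a series of 24 samples, 3 tumors with C44 and 3 with 3B10, which the methods describe as biological replicates. 4T1 is a mouse triple-negative mammary carcinoma line. The cells were implanted into the fourth mammary fat pad of female BALB/c mice of 8 wk of age, the strain from which the line came, so the tumors grew with a full set of host cells and their RNA is a mixture of carcinoma and host RNA. Treatment, at 15 mg/kg per dose for either antibody, began on day 8 after implantation, and the tumors were harvested on day 25. The comparison asks which transcripts of the tumor differ when PTN is blocked by antibody.

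PTN is a small secreted protein that binds heparin and is known best from the developing nervous system. With midkine, its closest relative, it binds the glycosaminoglycan chains of cell surface proteoglycans such as the syndecans and of the receptor phosphatase PTPRZ1, and other membrane proteins have been described as receptors. 4T1 tumors are known for large numbers of myeloid cells, chiefly neutrophils and macrophages, which the tumor draws from the blood with chemokines and growth factors.

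The deposited values are on a log2 scale, normalized for gene length, and cover 12091 genes. With the log undone, the values of the tumors summed to nearly the same total. The lowest value was about −0.98 in every tumor and was shared by 80 to 131 genes, so a value near it means little or no signal, and a log2 difference from it understates how far such a gene differs. The sequencing depth of each of these 6 samples is unknown, as the methods give reads only as an average, and no counting error can be given for a gene. In the text, values of a gene are listed for tumors 1, 2 and 3 of a group in that order, and a level is a value with the log undone, minus the lowest such value in that tumor. A total of 11467 genes with a level of at least 1 in at least 3 tumors was tested with limma. A difference is the log2 value with 3B10 minus that with C44, and SE is its standard error.

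A pair of tumors stood apart from the other 4, and it held a tumor of each group. The first principal component of the 11467 genes, with 42.1% of the variance, placed C44 3 at 26.2 and 3B10 1 at 31.9, while the other 4 tumors lay between −19.2 and −7.6. The second component, with 25.8%, placed the C44 tumors at 13.7, 19.8 and 9.3 and the 3B10 tumors at −2.6, −12.0 and −28.1. The groups therefore did not overlap on the second component, and on the first they did. In C44 3 and 3B10 1 together, 4015 genes (35.0%) were below all other 4 tumors and 1045 genes (9.11%) above them. Long genes made up more of the lower side: with the genes divided by transcript length into 5 sets of like size, the median of the pair minus the other 4 tumors went from 0.135 in the shortest to −0.436 in the longest set. The pair held 1 tumor of each group, but the difference between the groups also had a weak relation with length, with medians of 0.104 in the shortest and −0.081 in the longest set. Across genes, which are not independent replicates, its correlation with log2 length was −0.142, and −0.130 without the pair. The methods give RNA integrity only as a lower bound for all samples, and whether RNA quality or library preparation differed between the tumors was not tested. For many lists, counts and medians are therefore also given without C44 3 and 3B10 1, which leaves 2 tumors against 2.

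**Figure D1:**
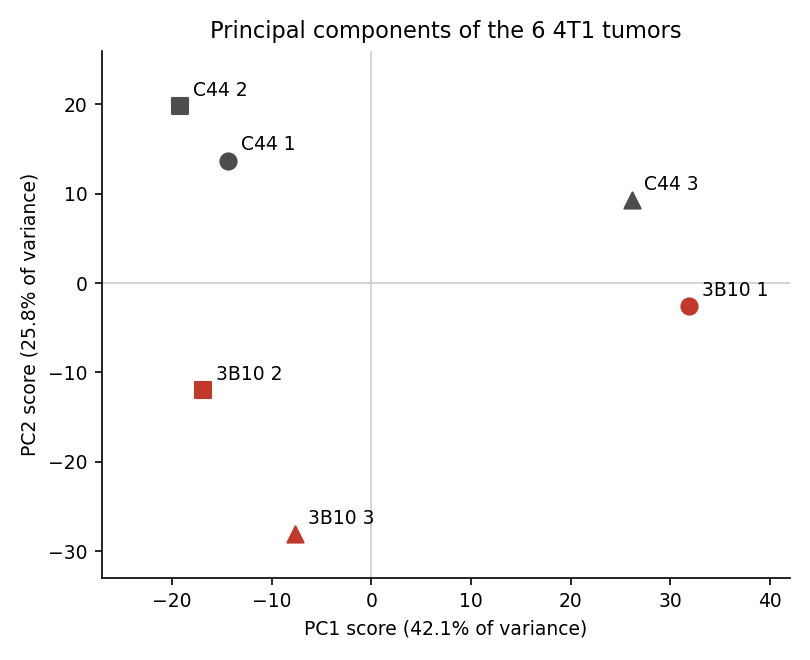
Principal components 1 and 2 of the 11467 genes tested, in log2 units, with a point for each of the 6 tumors. C44 3 and 3B10 1 lie at 26.2 and 31.9 on the first component, and the groups are separated along the second, where the C44 tumors are above 9 and the 3B10 tumors below −2.

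No gene passed an adjusted p of 0.05 by limma with Benjamini-Hochberg adjustment: 0 of 11467 genes, or 0%, with a smallest adjusted p of 0.334. At an unadjusted p under 0.05, 355 genes (3.1%) were lower and 364 genes (3.17%) higher with 3B10. All 3 tumors with 3B10 lay below all 3 with C44 in 507 genes (4.42%), and above them in 788 genes (6.87%). Over all genes tested, 5552 were lower and 5915 higher, the median difference was 0.01 and the median SE 0.18. Differences below −1 were found in 58 genes and above 1 in 31 genes. Other fits called few genes: limma with arrayWeights called 1 gene, and the fit without 3B10 1 called 2 genes, Actn3 (adjusted p = 0.0119 by limma) and Pdlim3 (adjusted p = 0.0491), both of which passed the filter on low values through the 3B10 tumors alone. Leaving out both tumors that stood apart, which was chosen after seeing the data, gave 0 genes at an adjusted p under 0.05, a smallest adjusted p of 0.0617, and 800 lower and 1038 higher genes at an unadjusted p under 0.05. Of the 355 lower genes 219 were among these 800, and of the 364 higher genes 322 were among these 1038. The counts of lower and higher genes at an unadjusted p under 0.05 were 217 and 181 without C44 1, 210 and 184 without C44 2, 767 and 535 without C44 3, 369 and 700 without 3B10 1, 529 and 242 without 3B10 2, and 194 and 176 without 3B10 3. The text below gives values and counts of genes in lists, to be read against these shares. A gene or list without a small p is not shown to be equal in the groups.

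**Figure D2:**
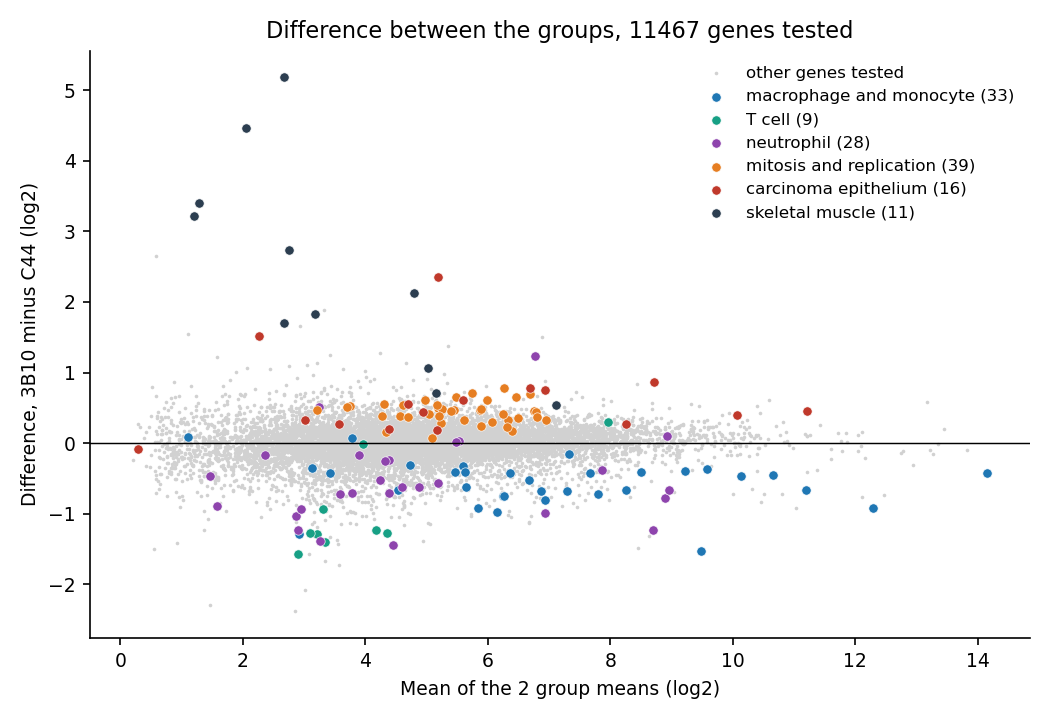
Difference between the groups (3B10 minus C44, log2) against the mean of the group means (log2) for the 11467 genes tested, with the genes of 6 lists in color. Skeletal muscle genes reach the top of the plot at 5.18 (Acta1), genes of mitosis lie above 0, and macrophage and T cell genes lie mostly below 0.

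A list of markers of mammary carcinoma epithelium was read in the tumors. Other epithelial tissue shares such markers, so they could not test the 4T1 label itself. Krt18 and Krt8, the paired keratins of simple epithelia, were abundant in all tumors, with values of 10.93 to 11.58 and 9.81 to 10.48. Epcam, an adhesion molecule of epithelial cells, was between 7.82 and 9.34. Of the 20 genes of this list, 16 were tested, Krt5 was below the filter, and Ovol1, Krt6a and Krt6b were not analysed here. Of 18 milk and luminal genes, 6 were not analysed here, 7 were below the filter and 5 were tested. Among these 5, 2 were lower and 3 higher with 3B10, and their median was 0.23, or 0.10 without 3B10 2. Over the 4 genes with a level of at least 1 in all 6 tumors the median turned to −0.02, with 2 lower and 2 higher. Mfge8, which codes for lactadherin, was the most abundant of them.

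Transcripts of the ligand that 3B10 binds were at the limit of what the table shows. Ptn (ENSMUSG00000029838, chr6:36714929-36810220 on the minus strand of GRCm38) was at −0.19, −0.65 and −0.12 with C44 and at −0.76, 0.86 and 0.37 with 3B10. The groups overlapped, the gene did not pass the filter on low values and was not tested. Ptprz1, the receptor phosphatase, lay between −0.98 and −0.79 in the 6 tumors and did not pass either. Mdk, coding for midkine, was at 2.17, 2.19 and 2.61 with C44 and at 2.25, 3.44 and 3.34 with 3B10. Its values in 3B10 2 and 3B10 3 were above all others, whereas 3B10 1 was within the C44 range, and the difference was 0.69 (SE 0.34).

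Of 19 genes written down for PTN, its relatives and its receptors, 17 were in the table and 14 were tested. In these 14, 9 were lower and 5 higher, with a median of −0.08, or −0.03 without the pair and −0.17 without C44 3. Sdc3, or syndecan-3, which is known as a PTN receptor on neurites, was at 6.87, 6.82 and 6.51 with C44 and at 6.03, 6.35 and 5.71 with 3B10. The groups did not overlap, and the difference was −0.70 (SE 0.19). It was the only gene of the 14 at an unadjusted p under 0.05. The most abundant was Sdc4, at 8.81 to 9.25 with C44 and 8.63 to 9.14 with 3B10, with a difference of −0.16 (SE 0.17). Other binding partners overlapped between the groups: the differences were 0.13 in Sdc1, −0.37 in Lrp1, a large endocytic receptor, −0.37 in Nrp1, a coreceptor of vascular growth factors, 0.21 in Ncl, or nucleolin, and −0.02 in Gpc1, a glypican.

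Some of the 12 genes with the largest differences in each direction, among those with an unadjusted p under 0.05 and no overlap of the groups, are described below. On the higher side, most were of skeletal muscle. These genes were chosen by their differences in these tumors, so the size and the lack of overlap are a description.

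Nos2, the inducible nitric oxide synthase of activated macrophages, is not among these genes and was named apart from them. It was at 4.96, 4.72 and 2.39 with C44 and at 4.72, 2.69 and 2.85 with 3B10. In this gene C44 3 had the lowest of the 6 values and 3B10 1 was level with C44 2, so the groups overlapped. Its difference was −0.60 (SE 0.78) in all tumors and −2.07 without the pair.

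Rnase2a, a secreted ribonuclease of the eosinophil-associated family, had a difference of −2.38 (SE 0.31). It was at 4.24, 3.94 and 3.97 with C44 and at 1.58, 2.32 and 1.09 with 3B10. The C44 tumors lay close together and all 3B10 tumors were more than 1 below them; as this family has close copies, reads may have been divided between them. F10, coding for coagulation factor X, was at 4.65, 4.17 and 3.69 with C44 and at 3.16, 2.71 and 1.63 with 3B10 (difference −1.67, SE 0.41). Dio2, a deiodinase that makes active thyroid hormone, had a difference of −1.43 (SE 0.34), and Ifitm6, a membrane protein of myeloid cells, of −1.39 (SE 0.26). Saa1 and Saa2, the acute phase serum amyloid genes, lie beside each other on chromosome 7 and are close copies. Saa2 was at 1.24, 0.85 and 1.81 with C44 and at 0.27, 0.10 and −0.98 with 3B10, the last being the lowest value of the tumor. The differences were −1.5 (SE 0.41) in Saa2 and −1.41 (SE 0.52) in Saa1. With values this near the lowest value, both understate how far the genes differ, and Saa2 passed the filter through the C44 tumors alone.

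**Figure D3:**
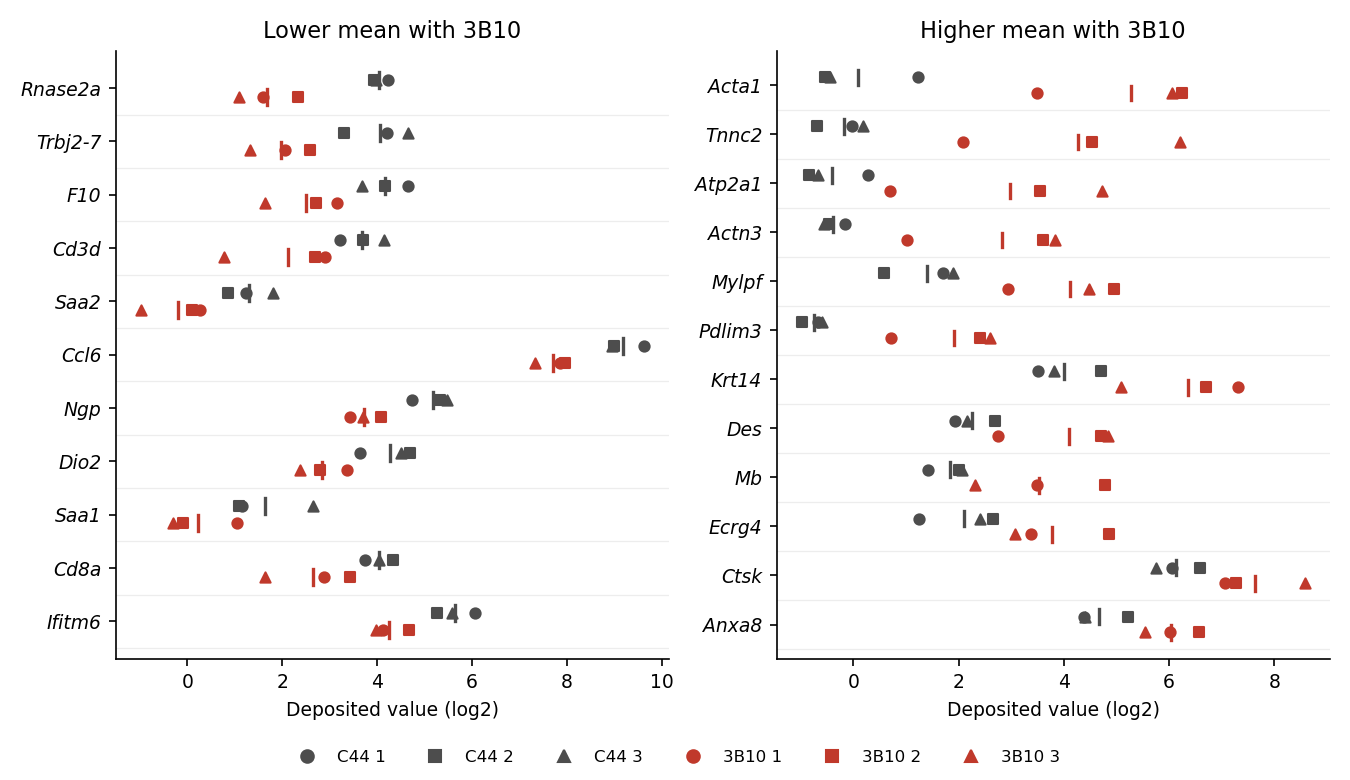
Deposited log2 values in each of the 6 tumors for genes out of the 12 with the largest differences in each direction, among genes tested with an unadjusted p under 0.05 and no overlap between the groups. Vertical bars are group means and marker shapes are tumors 1, 2 and 3. The genes were selected for groups that do not overlap, and 3B10 1 is the lowest 3B10 tumor in Acta1, Tnnc2, Atp2a1 and Actn3.

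Macrophage and monocyte genes were mostly lower. Of 33 genes tested, 31 were lower and 2 higher with 3B10, 16 lower with an unadjusted p under 0.05 and 13 without overlap, and the median was −0.46 against 0.01 over all genes tested. Without the pair 31 were again lower, 12 with an unadjusted p under 0.05, and the median was −0.47. The count of 16 was 10 without C44 1 and 10 without 3B10 3. In bulk samples such as these, fewer cells of a type and less RNA per cell cannot be told apart. Ptprc, coding for the leukocyte antigen CD45 and chosen after its values were seen, was at 4.67, 4.74 and 4.36 with C44 and at 3.70, 4.21 and 3.70 with 3B10, with a difference of −0.72 (SE 0.19).

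Fcgr2b, the inhibitory Fc receptor of macrophages and other leukocytes, had the least spread of these genes. It was at 7.33, 7.32 and 7.38 with C44 and at 6.46, 6.64 and 6.51 with 3B10. The difference was −0.81 (SE 0.11), while the C44 tumors were within 0.1 of each other. Ccr2, the receptor by which monocytes leave the marrow and enter tissue, was at 6.80, 6.58 and 6.54 with C44 and at 5.38, 5.97 and 5.62 with 3B10, without overlap and with a difference of −0.98 (SE 0.17). Lyz2, the lysozyme of myeloid cells, was at 13.02, 12.41 and 12.82 with C44 and at 11.32, 12.45 and 11.74 with 3B10. Here 3B10 2 was as high as C44 2 and the groups overlapped, with a difference of −0.92 (SE 0.29), or −0.62 without the pair. Apoe, the apolipoprotein of lipid-laden macrophages, also overlapped, with a difference of −0.66 (SE 0.34) that was −0.08 without the pair.

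Spp1, coding for osteopontin, was the most abundant gene of the list and made up 51.9% to 63.1% of its summed level. It was at 14.45, 14.19 and 14.45 with C44 and at 13.98, 14.14 and 13.68 with 3B10, a difference of −0.43 (SE 0.17) without overlap, although C44 2 and 3B10 2 were within 0.1. Osteopontin is also made by many carcinoma cells. The summed level of the list was 42241, 35151 and 43175 in the C44 tumors and 25698, 33803 and 23531 in the 3B10 tumors. Without Spp1 it was 19840, 16453 and 20755 against 9493, 15694 and 10371. The groups did not overlap in either sum, with 3B10 2 the highest of its group and near C44 2. Ly6c2, Chil3, Marco and Lyve1 of this list were not analysed here.

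The chemokines and receptors that guide these cells were lower as well. Of 24 chemokine genes tested, 22 were lower and 2 higher, 4 at an unadjusted p under 0.05, all lower, with a median of −0.43 and of −0.82 without the pair. The count of 4 was 7 without C44 3, 10 without 3B10 1 and 13 without the pair. The median was −0.73 without 3B10 1, and nearer to 0 without C44 2 (−0.24, 19 lower) and without 3B10 3 (−0.23, 20 lower). Ccl6, a chemokine of macrophages and other myeloid cells and the most abundant of the list, was at 9.62, 9.0 and 8.97 with C44 and at 7.85, 7.97 and 7.33 with 3B10. Every 3B10 tumor was well below every C44 tumor, and the difference was −1.48 (SE 0.23). Ccl9, its neighbor on chromosome 11 (chr11:83572919-83578636 against chr11:83587882-83593087 for Ccl6, GRCm38), was at 7.24, 6.63 and 6.64 with C44 and at 5.93, 5.65 and 5.87 with 3B10. The groups did not overlap, and the difference was −1.02 (SE 0.19). Ccl24, an attractant of eosinophils, had a difference of −0.90 (SE 0.24).

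Ccl2 and Ccl7, the main ligands of CCR2, gave another picture. Ccl2 was at 6.88, 6.87 and 5.85 with C44 and at 6.73, 5.68 and 5.31 with 3B10. C44 3 was below the other C44 tumors and 3B10 1 above the other 3B10 tumors, so the groups overlapped; the difference was −0.63 (SE 0.41), and −1.39 without the pair. Ccl7 behaved alike, with −0.46 (SE 0.30) in all tumors and −0.91 without the pair. Csf1, the growth factor of macrophages, had a difference of −0.13 (SE 0.18). The summed level of the chemokines was 2576, 2714 and 2118 with C44 and 1946, 1755 and 1272 with 3B10.

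All 9 chemokine receptor genes tested were lower with 3B10, 5 of them reaching an unadjusted p under 0.05 and 3 without overlap, with a median of −0.68, or −0.84 without the pair. The count of 5 was 3 without C44 2 and 3 without 3B10 3. Ccr1, a receptor of myeloid cells and the most abundant of these, was at 7.52, 7.27 and 7.10 with C44 and at 6.38, 6.99 and 6.65 with 3B10 (difference −0.62, SE 0.18). Its groups did not overlap. Ccr1 and Ccr2 lie close together on chromosome 9, at chr9:123962124-123968692 and chr9:124101950-124113557. Cx3cr1, the fractalkine receptor of patrolling monocytes and tissue macrophages, was at 7.03, 7.17 and 7.43 against 5.81, 7.17 and 6.63. Only 3B10 1 and 3B10 3 were below the C44 tumors in this gene (difference −0.68, SE 0.32, or −0.205 without the pair). The receptors summed to 704, 710 and 616 with C44 and to 358, 507 and 390 with 3B10.

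Promoter sequences show what several of the lower genes share. RefSeq promoters on GRCm38.p6, from 250 bases before to 50 bases after a start, were matched by symbol to 9390 of the 12091 genes, 8939 of them tested. The letters AGGAAGT, which hold the core bound by ETS factors such as PU.1 of myeloid cells, were searched on both strands. They were found in 9.35% of all 32851 promoters, each counted singly, and in 10.7% of tested genes with a matched promoter. Here and below, a gene was counted as holding a motif where any of its promoters did. A share of genes and the share of all promoters are therefore not on the same basis. Among matched genes with an unadjusted p under 0.05 they were found in 64 of 268 (23.9%) on the lower side and in 19 of 275 (6.91%) on the higher side. Of 24 matched macrophage and monocyte genes 8 held them (33.3%), of 16 chemokine genes 4 (25%), and of 24 neutrophil genes 3 (12.5%). Of 6 T cell genes 3 held them (50%). Among lists on the higher side, carcinoma epithelium held them in 2 of 10 matched genes (20%). Mitosis genes held them in 4 of 33 (12.1%) and skeletal muscle genes in 1 of 8 (12.5%). The promoters of Ccl6 (chr11:83593038-83593337), of Lyz2 (chr10:117282223-117282522) and of Cd3e (chr9:45009562-45009861), a T cell gene described further on, are all on the minus strand. Each is shown 5′ to 3′ on the strand of the gene, in lower case, with the match in capitals. In all 3 the letters are on the opposite strand and read ACTTCCT, beginning 48, 100 and 18 bases before the start. A match is a description of letters and does not show a bound site.
Ccl6: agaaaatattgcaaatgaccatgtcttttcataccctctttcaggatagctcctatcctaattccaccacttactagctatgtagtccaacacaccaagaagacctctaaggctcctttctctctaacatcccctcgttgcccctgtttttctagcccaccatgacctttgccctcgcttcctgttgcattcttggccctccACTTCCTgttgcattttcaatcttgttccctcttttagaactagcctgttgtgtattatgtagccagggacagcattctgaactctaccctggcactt
Lyz2: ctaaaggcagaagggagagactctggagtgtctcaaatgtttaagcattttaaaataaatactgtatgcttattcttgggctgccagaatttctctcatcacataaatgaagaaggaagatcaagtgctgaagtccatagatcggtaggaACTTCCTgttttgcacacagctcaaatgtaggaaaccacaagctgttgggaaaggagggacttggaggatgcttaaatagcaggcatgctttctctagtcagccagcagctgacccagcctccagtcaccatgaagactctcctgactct
Cd3e: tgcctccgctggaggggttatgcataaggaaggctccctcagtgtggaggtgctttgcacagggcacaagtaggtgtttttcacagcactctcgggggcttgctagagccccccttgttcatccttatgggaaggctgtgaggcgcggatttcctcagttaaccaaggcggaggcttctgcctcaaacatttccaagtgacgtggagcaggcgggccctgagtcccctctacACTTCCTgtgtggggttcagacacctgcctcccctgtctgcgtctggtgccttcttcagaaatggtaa

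The motif bound by NF-κB, searched by its consensus on both strands, was in 8.46% of all promoters and in 12.5% of matched tested genes. At an unadjusted p under 0.05 it was in 28 of 268 matched lower genes (10.4%) and in 30 of 275 matched higher genes (10.9%). Of the 16 matched chemokine genes, 5 (31.2%) held it. In lists on the higher side it was in 3 of 10 matched carcinoma epithelium genes (30%) and in 2 of 8 matched muscle genes (25%). Mitosis genes held it in 3 of 33 (9.09%). Among the transcripts of the NF-κB family and its regulators, 13 of 21 were lower and 8 higher, none at an unadjusted p under 0.05, and the median was −0.03, or −0.16 without the pair, and from −0.15 to 0.05 when a single tumor was left out. Nfkbia, coding for the inhibitor that NF-κB itself induces, was at 7.0, 6.94 and 6.52 with C44 and at 6.95, 6.60 and 6.87 with 3B10. The groups overlapped, with a difference of −0.01 (SE 0.17). Of 22 genes of AP-1 and the immediate early response, 13 were lower and 9 higher, 2 lower at an unadjusted p under 0.05, with a median of −0.07. That count was 4 without C44 3, 0 without C44 1, 0 without 3B10 2 and 6 without the pair, and without C44 2 the direction turned, with 8 lower and 14 higher and a median of 0.04. Among these Dusp1, a phosphatase that switches off stress kinases, was at 4.42, 4.74 and 4.33 against 4.28, 4.05 and 3.85, without overlap (difference −0.44, SE 0.18). The mRNA of a transcription factor does not report its activity.

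Neutrophil genes were lower in 23 of 28 genes tested and higher in 5. At an unadjusted p under 0.05 there were 10 lower and 1 higher, 10 lower genes did not overlap, and the median was −0.62, or −0.75 without the pair. The count of 10 was 17 without 3B10 1, 7 without 3B10 3 and 14 without the pair, and the median was −0.35 without 3B10 3. The genes with the smallest p of the list were Ngp, Camp and Ltf. Ngp, a neutrophil granule protein, was at 4.73, 5.32 and 5.47 with C44 and at 3.42, 4.07 and 3.70 with 3B10. Camp, coding for cathelicidin, was at 3.56, 3.75 and 4.56 against 2.79, 2.80 and 2.13, and Ltf, coding for lactoferrin, at 3.02, 3.60 and 3.53 against 2.01, 2.78 and 2.26. None of the 3 overlapped, and their differences were −1.44 (SE 0.25), −1.38 (SE 0.31) and −1.03 (SE 0.26).

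The abundant genes of mature neutrophils differed less clearly. S100a8 and S100a9, the paired calcium-binding proteins that form calprotectin, were at 8.97, 8.95 and 9.91 and at 9.13, 8.99 and 9.75 with C44. With 3B10 they were at 9.05, 8.35 and 8.08 and at 9.20, 8.54 and 8.14. In both genes C44 3 was the highest tumor and 3B10 1 lay among the C44 tumors, so the groups overlapped, with differences of −0.78 (SE 0.33) and −0.66 (SE 0.30). Slpi, a protease inhibitor that epithelia also make, was between 8.79 and 9.0 in all tumors (difference 0.11, SE 0.10). Mmp9, a gelatinase of neutrophil granules and of other cells, was the gene at an unadjusted p under 0.05 on the higher side. It was at 5.80, 7.09 and 5.56 with C44 and at 6.36, 7.90 and 7.88 with 3B10, with a difference of 1.23 (SE 0.52) and 3B10 1 within the C44 range. The summed level of the list was 3135, 3016 and 4032 with C44 and 3142, 2387 and 1944 with 3B10, so the sums overlapped. S100a9 made up 14.5% to 21.3% of it. The defining markers Ly6g, Mpo, Elane and Mmp8 were not analysed here.

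A few cytokine genes differed more than the rest of their list. Il1b and Il1a, the interleukin-1 genes, lie together on chromosome 2. Il1b was at 7.59, 7.46 and 7.23 with C44 and at 7.15, 6.21 and 5.94 with 3B10, a difference of −1.0 (SE 0.29) without overlap. Il1a had a difference of −1.04 (SE 0.31) and Osm, coding for oncostatin M, of −0.88 (SE 0.22), both without overlap. In all 3 genes 3B10 1 was the highest 3B10 tumor and nearest to C44, and without the pair their differences were −1.45, −1.54 and −1.10. These were the 3 genes at an unadjusted p under 0.05, all lower, among 26 interleukin, TNF family and colony-stimulating factor genes, of which 19 were lower and 7 higher with a median of −0.14. The count of 3 was 7 without C44 3.

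T cell genes had a median of −1.27, with 8 of 9 genes tested lower and 1 higher, 6 lower at an unadjusted p under 0.05 and 6 without overlap. Without the pair 7 were lower, 2 of them with an unadjusted p under 0.05, and the median was −1.20. The count of 6 was 3 without C44 3, and the median was −0.73 without 3B10 3. Cd3e, a chain of the T cell receptor complex, was at 3.54, 3.82 and 3.83 with C44 and at 2.91, 2.99 and 1.47 with 3B10. Cd8a, the coreceptor of cytotoxic T cells, was at 3.75, 4.33 and 4.04 against 2.89, 3.42 and 1.63, and Lck, the kinase that starts receptor signals, at 3.59, 3.80 and 3.96 against 2.97, 3.13 and 2.44. In each of these genes 3B10 3 was the lowest tumor and the other 3B10 tumors were below all C44 tumors. The differences were −1.27 (SE 0.40), −1.39 (SE 0.43) and −0.94 (SE 0.22). Cd3d was at 3.21, 3.70 and 4.16 against 2.90, 2.69 and 0.77, again with 3B10 3 the lowest (difference −1.57, SE 0.55). Trbj2-7, a joining segment of the T cell receptor beta locus, had a difference of −2.08 (SE 0.42).

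These levels were low, and the sum of the list was set by a gene of other cells too. Thy1, which fibroblasts also express and which is held by the fibroblast list as well, made up 51.3% to 88.4% of the summed level and was the gene that was higher (difference 0.30, SE 0.22). The list summed to 287, 457 and 395 with C44 and to 326, 417 and 315 with 3B10. Without Thy1 the sums were 107, 145 and 192 against 85.8, 96.8 and 36.4, which did not overlap. Of the 29 genes written down, 20 were not analysed here, Cd4, Foxp3 and Trac among them.

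Genes of NK cells and cytotoxic granules were lower in 8 of 9 tested, 2 with an unadjusted p under 0.05, and their median was −0.76, or −1.26 without the pair. Without 3B10 1 all 9 were lower, 7 at an unadjusted p under 0.05, with a median of −1.31. The count of 2 was 0 without C44 2, 1 without C44 1, C44 3 or 3B10 3, and 6 without the pair, and the median was −0.44 without 3B10 3. Nkg7, a granule membrane protein, was at 5.16, 5.27 and 5.19 with C44 and at 4.83, 4.49 and 2.82 with 3B10 (difference −1.16, SE 0.47). Il2rb, the interleukin-2 receptor beta chain, had a difference of −1.14 (SE 0.43) with overlap, since C44 3 at 3.48 was level with 3B10 2 at 3.49. Gzmc, a granzyme, was the most abundant, with 19.4% to 61.5% of the summed level, and did not follow the others (difference 0.17, SE 0.55). The sums were 256, 235 and 235 with C44 and 359, 118 and 132 with 3B10. Ncr1, Klrb1c and Eomes were not analysed here.

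Antigen presentation by MHC class II was lower in 11 of 13 genes and higher in 2, with a median of −0.72, or −0.98 without the pair and −0.32 without 3B10 3. At an unadjusted p under 0.05 there were 3 lower genes and 1 higher, and 8 lower without 3B10 1, 5 without C44 1, 1 without C44 2 and 1 without 3B10 3. Cd74, the invariant chain, was at 12.22, 12.65 and 12.61 with C44 and at 12.26, 11.96 and 10.97 with 3B10. 3B10 1 was level with C44 1, and 3B10 3 was more than 1 below every C44 tumor (difference −0.76, SE 0.32). H2-Ea had a difference of −0.92 (SE 0.38), also with overlap. Ctss, the cathepsin that trims the invariant chain, was at 11.26, 11.17 and 11.05 against 10.27, 10.84 and 10.23, without overlap (difference −0.71, SE 0.18). Rfxap, a subunit of the factor that binds class II promoters, was higher, at 4.15, 4.16 and 4.32 against 4.60, 4.76 and 4.67 (difference 0.47, SE 0.13). The list summed to 13808, 19719 and 17551 with C44 and to 14114, 11501 and 6024 with 3B10, with 32.5% to 35.6% from Cd74.

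Genes of dendritic cells were lower in 6 of 9 and higher in 3, with 3 lower and 1 higher at an unadjusted p under 0.05 and a median of −0.17, or −0.28 without 3B10 1 and −0.10 without C44 2. Its defining markers Flt3, Xcr1 and Clec9a were not analysed here. Complement genes were lower in 14 of 17 tested, 6 at an unadjusted p under 0.05, with a median of −0.41, or −0.66 without the pair. Over the 15 genes with a level of at least 1 in all 6 tumors the median was −0.67. The count of 6 was 3 without C44 2 and 3 without 3B10 3, and the medians were −0.28 and −0.23 there, −0.77 without C44 3 and −0.63 without 3B10 2. C3ar1, the receptor of the C3a fragment, was at 6.42, 6.39 and 6.11 against 5.41, 5.98 and 5.51 (difference −0.67, SE 0.18). Itgb2, the beta chain of complement receptors and leukocyte integrins, was at 8.20, 7.72 and 7.05 against 6.62, 6.97 and 6.72 (difference −0.89, SE 0.27). Neither overlapped, though C44 3 was only 0.1 above 3B10 2 in Itgb2. C4b, a component of the classical pathway, was at 5.28, 6.05 and 5.45 against 4.86, 5.02 and 3.52. Its difference of −1.12 (SE 0.40) leaned on 3B10 3, the lowest tumor.

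Of 18 genes of immune checkpoints and suppression, 17 were lower and 1 higher, 7 lower at an unadjusted p under 0.05, with a median of −0.45, or −0.59 without the pair. The count of 7 was 12 without C44 3, 4 without C44 2, 4 without 3B10 3 and 10 without the pair. Cd274, coding for the ligand PD-L1 and chosen after its values were seen, was at 5.87, 6.07 and 4.97 with C44 and at 5.11, 4.44 and 3.90 with 3B10. C44 3 was just below 3B10 1, so the groups overlapped, with a difference of −1.15 (SE 0.37), or −1.80 without the pair. Cd200r1, an inhibitory receptor of myeloid cells, was at 4.13, 4.27 and 3.70 against 3.21, 3.45 and 2.93 (difference −0.84, SE 0.22). Sirpa, the receptor of the signal CD47, was at 7.17, 7.26 and 7.06 against 6.63, 6.94 and 6.61 (difference −0.44, SE 0.13). Neither overlapped.

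**Figure D4:**
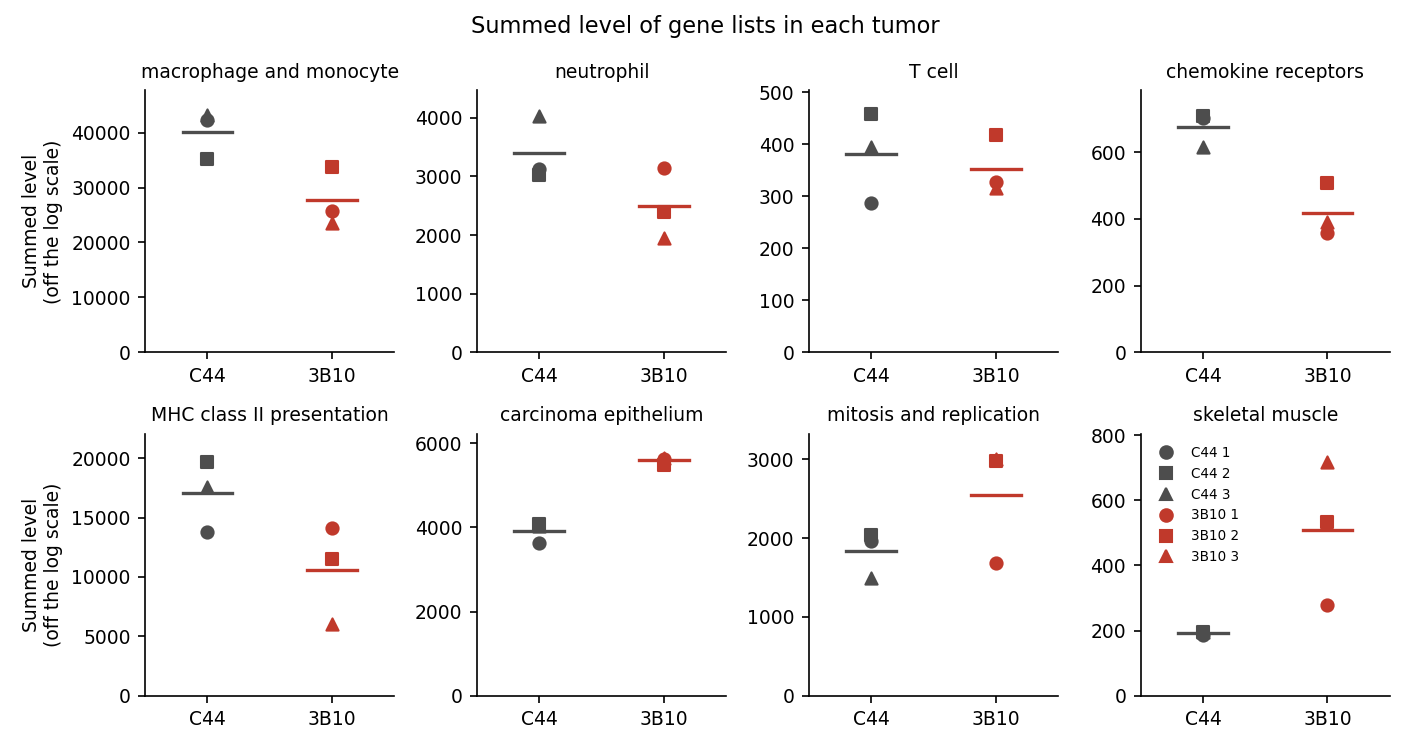
Summed level (log undone, minus the lowest such value in that tumor) of the genes of 8 lists in each of the 6 tumors, with bars at the group means and axes that start at 0. The sums of the macrophage, chemokine receptor, carcinoma epithelium and skeletal muscle lists do not overlap between the groups, and those of the neutrophil, T cell, MHC class II and mitosis lists do.

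Interferon-induced genes and MHC class I depended on which tumors were used. Of 46 interferon-induced genes 27 were lower and 19 higher, none at an unadjusted p under 0.05, with a median of −0.04. Without the pair 39 were lower, 11 with an unadjusted p under 0.05, and the median was −0.31, while without 3B10 1 alone 41 were lower with a median of −0.26. Isg15, a ubiquitin-like protein induced by interferon and chosen after its values were seen, was at 7.44, 7.34 and 7.50 with C44 and at 8.45, 7.50 and 7.45 with 3B10. 3B10 1 was about 1 above the rest and the others were within 0.2. Oasl2, another induced gene, was at 6.33, 6.35 and 6.00 against 6.89, 6.45 and 6.37, so all 3B10 tumors were above the C44 tumors (difference 0.35, SE 0.18). The direction turned without 3B10 3, with 28 of 46 genes higher and a median of 0.03, and without C44 2, with 25 higher and a median of 0.03. MHC class I genes were lower in 15 of 20 with a median of −0.04, and in 19 of 20 with −0.22 without the pair, but they were higher in 15 of 20 without 3B10 3 (median 0.09) and in 12 of 20 without C44 2 (median 0.01). B2m, the light chain of class I molecules, was at 13.25, 13.31 and 13.50 against 13.49, 13.08 and 13.03, which overlapped (difference −0.15, SE 0.16).

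On the higher side, carcinoma epithelium genes were higher in 15 of 16 tested and lower in 1. At an unadjusted p under 0.05, 6 were higher and none lower, 5 did not overlap, and the median was 0.44. Without the pair the count of 6 was 4 and the median 0.44. Epcam was at 7.82, 8.42 and 8.57 with C44 and at 9.34, 9.21 and 8.88 with 3B10. All 3B10 tumors were above all C44 tumors, with a difference of 0.87 (SE 0.22). Krt18 was at 10.93, 10.99 and 11.03 against 11.41, 11.31 and 11.58 (difference 0.45, SE 0.12), and Krt8 had a difference of 0.40 (SE 0.13). These paired keratins also lie beside each other, at chr15:102028180-102032027 and chr15:101996698-102004482. Krt18 made up 46.3% to 54.2% of the summed level of the list, which was 3617, 4070 and 4034 with C44 and 5629, 5487 and 5656 with 3B10. Without Krt18 the sums were 1663, 2038 and 1948 against 2908, 2946 and 2591, again without overlap.

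Krt14, a keratin of basal and stratified epithelium, had the largest difference of this list, 2.36 (SE 0.56). It was at 3.51, 4.70 and 3.81 with C44 and at 7.30, 6.70 and 5.09 with 3B10, so that 3B10 3 was near C44 2 and the other 3B10 tumors were well above. Its usual partner Krt5, named after its values were seen, did not pass the filter: it was at 5.68 in 3B10 1 and between −0.98 and −0.11 in the other 5 tumors. Of 21 genes of skin and hair, 16 were not analysed here and 2 were tested, both lower, with a median of −0.15, but both were higher without 3B10 2 (median 0.06), and the median was 0.10 without 3B10 3 and −0.62 without 3B10 1. Sfn, the 14-3-3 sigma protein of epithelial cells and chosen after its values were seen, was at 4.23, 4.01 and 4.05 with C44 and at 4.91, 5.30 and 5.50 with 3B10 (difference 1.14, SE 0.18). Sult2b1, a sulfotransferase of cholesterol that was chosen in the same way, was at 3.58, 3.75 and 3.55 against 4.50, 4.54 and 4.49. Neither gene overlapped. Anxa8, an annexin found in mammary epithelium, was at 4.37, 5.22 and 4.4 against 6.01, 6.56 and 5.55 (difference 1.37, SE 0.31).

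Genes of mitosis and DNA replication were higher in all 39 tested, with a median of 0.45. Of these, 9 had an unadjusted p under 0.05 and 5 did not overlap. These counts depended on 3B10 1, which had values near those of C44: without it, 36 genes had an unadjusted p under 0.05 and the median was 0.77, and without the pair 37 and 0.56. The count of 9 was 3 without C44 3, 3 without 3B10 2, 3 without 3B10 3 and 4 without C44 1, and the median was 0.27 without 3B10 2, 0.28 without C44 3 and 0.29 without 3B10 3. Over the list, the pair that stood apart was lower than the other 4 tumors by a median of −0.66, so these genes moved with the first principal component as well as with the groups. Cdc20, an activator of the anaphase-promoting complex, was at 5.73, 6.05 and 5.83 with C44 and at 6.09, 6.80 and 7.05 with 3B10. Birc5, or survivin, was at 5.46, 5.46 and 5.25 against 5.64, 6.28 and 6.37, and Cenpa, the histone of centromeres, at 5.71, 5.64 and 5.70 against 5.95, 6.41 and 6.51. None overlapped, 3B10 1 was the nearest to C44 in each, and the differences were 0.78 (SE 0.24), 0.71 (SE 0.21) and 0.61 (SE 0.16).

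Pcna, the sliding clamp of DNA polymerase and the most abundant of the list, overlapped between the groups, with a difference of 0.33 (SE 0.17). The list summed to 1964, 2045 and 1490 with C44 and to 1686, 2972 and 2999 with 3B10. Promoters of cell cycle genes often hold CCAAT boxes and the element TTTGAA, and both were searched on both strands. CCAAT was in 25 of 33 matched genes of this list (75.8%), in 37.4% of all promoters and in 43.0% of matched tested genes. TTTGAA was in 16 of 33 (48.5%), in 17.9% of all promoters and in 13.9% of matched tested genes. At an unadjusted p under 0.05, CCAAT was in 37.7% of lower and 45.8% of higher genes, and TTTGAA in 17.2% and 18.2%. TTTGAA was also in 33.3% of macrophage and monocyte genes and 25% of chemokine genes. Its shares were 12.5% in neutrophil, 10% in carcinoma epithelium and 0% in T cell and muscle genes. The promoters of Ccnb2 (chr9:70421505-70421804), coding for cyclin B2 and chosen after its values were seen (difference 0.65, SE 0.23), and of Cdc20 (chr4:118437294-118437593) are printed because they hold both. Both are from RefSeq on GRCm38.p6, on the minus strand, with the matches in capitals. In Ccnb2, CCAAT begins 87, 54 and 21 bases before the start and TTTGAA 167 bases before it, with another TTTGAA after the start. In Cdc20, CCAAT begins 53 and 8 bases and TTTGAA 18 bases before the start. The matches describe the letters alone.
Ccnb2: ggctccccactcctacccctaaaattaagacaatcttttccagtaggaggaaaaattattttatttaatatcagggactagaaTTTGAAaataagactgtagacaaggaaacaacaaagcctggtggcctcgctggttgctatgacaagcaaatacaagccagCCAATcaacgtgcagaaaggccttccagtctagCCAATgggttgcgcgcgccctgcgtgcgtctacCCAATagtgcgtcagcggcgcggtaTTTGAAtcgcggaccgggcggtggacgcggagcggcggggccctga
Cdc20: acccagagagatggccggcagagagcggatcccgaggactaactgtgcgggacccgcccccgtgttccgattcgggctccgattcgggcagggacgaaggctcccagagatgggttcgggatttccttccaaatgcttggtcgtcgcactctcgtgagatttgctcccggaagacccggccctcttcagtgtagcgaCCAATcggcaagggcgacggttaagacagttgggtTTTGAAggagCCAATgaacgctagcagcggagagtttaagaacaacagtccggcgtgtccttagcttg

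Few genes of energy metabolism reached an unadjusted p under 0.05. Oxidative phosphorylation genes were higher in 40 of 43 tested, none by that measure, with a median of 0.18, or 0.23 without the pair. Without C44 3, 13 were higher at an unadjusted p under 0.05. Glycolysis and hypoxia genes were lower in 26 of 30, 2 at an unadjusted p under 0.05, with a median of −0.29, or −0.43 and 15 genes without the pair. The count of 2 was 10 without C44 3, 5 without 3B10 1, 1 without C44 1, 1 without C44 2 and 0 without 3B10 3. Without 3B10 2 only 17 of 30 were lower and the median was −0.11, and without C44 1 it was −0.19. Pfkfb3, which makes the activator of phosphofructokinase, was at 4.35, 4.93 and 3.83 with C44 and at 3.72, 3.44 and 3.44 with 3B10. Its relative Pfkfb4 was at 4.44, 4.41 and 4.35 against 3.87, 4.23 and 3.87. Neither overlapped, and the differences were −0.84 (SE 0.27) and −0.41 (SE 0.15). Pkm, the pyruvate kinase, was the most abundant and did not follow (difference 0.01, SE 0.16).

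Ribosomal protein genes were higher in 61 of 75 with a median of 0.10, which was 0.02 without 3B10 1 and 0.20 without C44 3. The set of genes with the shortest transcripts also had a median of 0.10, and a relation of this list with length was not tested. Heat shock genes were higher in 13 of 14, 2 of them reaching an unadjusted p under 0.05 and 5 without overlap, with a median of 0.26, and 5 genes had an unadjusted p under 0.05 without 3B10 1 and 1 without C44 1, C44 2, 3B10 2 or 3B10 3. The median was 0.15 without C44 3 and 0.17 without 3B10 2. Bag3, a co-chaperone, was at 6.01, 6.04 and 6.16 with C44 and at 6.42, 6.52 and 6.55 with 3B10. The groups were clearly apart, with a difference of 0.42 (SE 0.11). Dnaja1, another co-chaperone, had a difference of 0.37 (SE 0.14). In further lists, 13 of 26 genes of the unfolded protein response were lower (median −0.01), 10 of 17 p53 targets (−0.17), 7 of 20 genes of NRF2 and glutathione (0.08), 8 of 29 of cholesterol and fatty acid synthesis (0.11), and 6 of 15 of epithelial-mesenchymal transition (0.14). With a single tumor left out these medians ranged from −0.11 to 0.10, from −0.17 to 0.00112, from −0.03 to 0.09, from −0.02 to 0.32 and from 0.06 to 0.24, in that order. The lowest was without C44 3 in all but the p53 targets. Without the pair the median of the p53 targets was 0.02, with 8 lower and 9 higher.

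Skeletal muscle genes had the largest differences of all lists. All 11 genes tested were higher, 10 at an unadjusted p under 0.05 and 9 without overlap, with a median of 2.13, or 3.28 without the pair. Some entered the test through the 3B10 tumors, where they are high: 3 of the 11 had a level of at least 1 in no C44 tumor, against 6 of all 11467 genes. The 6 muscle genes with a level of at least 1 in all 6 tumors, a choice made after seeing the data, were all higher, 5 at an unadjusted p under 0.05, with a median of 1.38. Acta1, the actin of skeletal muscle fibers, was at 1.23, −0.53 and −0.44 with C44 and at 3.49, 6.25 and 6.06 with 3B10. It was near the lowest value in C44 2 and C44 3, and its difference was 5.18 (SE 0.79). Tnnc2, the troponin C of fast fibers, was at −0.03, −0.70 and 0.18 against 2.09, 4.54 and 6.20 (difference 4.46, SE 0.91). Mylpf, a myosin light chain of fast fibers, was at 1.71, 0.59 and 1.89 against 2.94, 4.95 and 4.48 (difference 2.73, SE 0.56). In each of these genes 3B10 1 was the lowest of the 3B10 tumors and above every C44 tumor. Actn3, the actinin of fast fibers, and Atp2a1, the calcium pump of their reticulum, had differences of 3.21 (SE 0.69) and 3.40 (SE 0.93).

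Pdlim3, a protein of the Z disc outside the list, was at −0.68, −0.98 and −0.59 with C44 and at 0.72, 2.40 and 2.60 with 3B10. Differences in genes of which C44 is near the lowest value are understated on this scale. Des, coding for desmin, which smooth muscle also makes and the pericyte list holds too, had a difference of 1.84 (SE 0.54), and Mb, coding for myoglobin, of 1.70 (SE 0.56). Eno3, an enolase of muscle, was the most abundant gene, at 6.88, 6.92 and 6.74 against 7.25, 7.35 and 7.55 (difference 0.54, SE 0.12). It made up 26.1% to 63.0% of the summed level of the list, which was 186, 195 and 195 with C44 and 279, 532 and 718 with 3B10. Without Eno3 the sums were 68.9, 74.3 and 88.5 against 127, 369 and 531. Of the 32 genes of the list, 19 were not analysed here, Ckm, Myh1 and Ttn among them, and Ryr1 and Myh4 were below the filter. Myh4, the myosin of the fastest fibers and named after its values were seen, was at −0.89, −0.98 and −0.98 with C44 and at −0.24, 0.94 and 4.11 with 3B10. How much muscle each sample of tissue held was not recorded in the sources used here, and the part of such tissue in the other results was not tested.

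Muscle promoters often hold the E-box CAGCTG, bound by myogenic factors, and the CArG box, bound by serum response factor. On both strands, CAGCTG was in 7 of 8 matched genes of the muscle list (87.5%), in 16.3% of all promoters and in 17.3% of matched tested genes. It was in 22% of lower and 14.2% of higher genes at an unadjusted p under 0.05. Other lists held it too, with 50% of T cell, 31.2% of chemokine and 29.2% of macrophage and monocyte genes. The shares were 20% in carcinoma epithelium, 15.2% in mitosis and 12.5% in neutrophil genes. The CArG box was in 1 of these 8 (12.5%), in 1.63% of all promoters and in 1.57% of matched tested genes. The promoters of Acta1 (chr8:123894726-123895025, minus strand) and Mylpf (chr7:127211358-127211657, plus strand), from RefSeq on GRCm38.p6, are shown as the genes with large differences. Their matches are in capitals. Acta1 holds CAGCTG beginning 221 bases and a CArG box 73 bases before the start, and Mylpf holds CAGCTG 51 bases before it. As above, a match is a description.
Acta1: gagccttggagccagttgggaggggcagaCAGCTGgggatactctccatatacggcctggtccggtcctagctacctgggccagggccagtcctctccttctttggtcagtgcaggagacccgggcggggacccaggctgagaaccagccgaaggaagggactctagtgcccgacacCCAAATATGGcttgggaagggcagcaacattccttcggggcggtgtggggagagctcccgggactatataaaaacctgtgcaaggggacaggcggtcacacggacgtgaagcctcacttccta
Mylpf: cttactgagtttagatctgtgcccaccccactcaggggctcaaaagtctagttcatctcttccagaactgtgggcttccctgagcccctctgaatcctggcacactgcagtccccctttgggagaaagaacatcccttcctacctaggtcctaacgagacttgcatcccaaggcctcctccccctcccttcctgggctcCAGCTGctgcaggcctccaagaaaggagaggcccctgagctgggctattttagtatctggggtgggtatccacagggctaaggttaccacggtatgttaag

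Fibroblast and fibrillar matrix genes were higher in 29 of 36 tested and lower in 7, with 1 gene at an unadjusted p under 0.05 in each direction and a median of 0.24, or 0.36 without the pair. In the pair that stood apart they were lower than in the other tumors by a median of −0.92. They also depended on 3B10 2: without it, 25 genes were lower and the median was −0.19. Without C44 3 the median was −0.02. Without 3B10 1 it was 0.58, and without C44 2 0.49. Col1a1, the main chain of type I collagen, was at 8.96, 9.43 and 8.74 with C44 and at 8.59, 10.80 and 9.42 with 3B10. 3B10 2 was the highest and 3B10 1 the lowest of the 6 tumors (difference 0.56, SE 0.50), and without 3B10 2 the difference was −0.04. Dcn, coding for decorin, was at 6.20, 6.33 and 6.86 against 6.88, 7.33 and 7.17, without overlap by a margin of 0.02 (difference 0.66, SE 0.20). Pdgfra, the receptor that marks many fibroblasts, was on the other side, at 5.80, 6.10 and 5.71 against 5.32, 5.75 and 5.16 (difference −0.46, SE 0.19). Fn1, coding for fibronectin, was the most abundant gene of the list, with 21.5% to 43.5% of the summed level, and its difference was −0.38 (SE 0.17). The sums were 7470, 9545 and 6434 with C44 and 5701, 13152 and 7112 with 3B10.

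Endothelial genes were lower in 18 of 20, none at an unadjusted p under 0.05 and none without overlap, with a median of −0.21. The median was 0.11 without C44 2, and 10 were lower without 3B10 3. In the other direction, the median was −0.44 without C44 1, and −0.44 with 20 lower without 3B10 2. Without the pair it was −0.16. Of 15 pericyte and smooth muscle genes 8 were lower (median −0.02), of 18 basement membrane genes 9 (−0.02), and of 30 metalloproteases and inhibitors 13 (0.03). Single tumors moved these medians to 0.32, 0.17 and 0.19 without C44 2, to −0.27 and −0.22 in the first lists without 3B10 2, and to −0.12 in the metalloproteases without C44 3. Without the pair the median of the metalloproteases was −0.08, with 17 lower and 13 higher. Ctsk, a collagen-cleaving cathepsin of the last list, was at 6.05, 6.58 and 5.76 with C44 and at 7.06, 7.28 and 8.57 with 3B10. It was higher in all 3B10 tumors, with a difference of 1.51 (SE 0.40), and so was Ecrg4, a secreted peptide precursor, with 1.66 (SE 0.53). Adipocyte genes were lower in 6 of 11, and in 8 without C44 1, and nerve genes in 4 of 5 (median −0.17, or −0.33 without C44 3), though in only 2 of 5 without C44 2, and Adipoq, Lep and Plin1 were not analysed here. Erythroid and platelet genes were lower in 4 of 6 (median −0.79), a list in which 3B10 2 was the lowest tumor at a median deviation of −1.48, and whose median difference was −0.07 without it. The median difference of this list was −1.30 without 3B10 1 and −0.51 without C44 3. Mast cell and basophil genes were higher in 3 of 4 (median 0.80, 0.19 without the pair and −0.40 without 3B10 1), and B cell and plasma cell genes in 2 of 4 (median −0.25, 0.17 without the pair and 0.16 without C44 3).

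**Figure D5:**
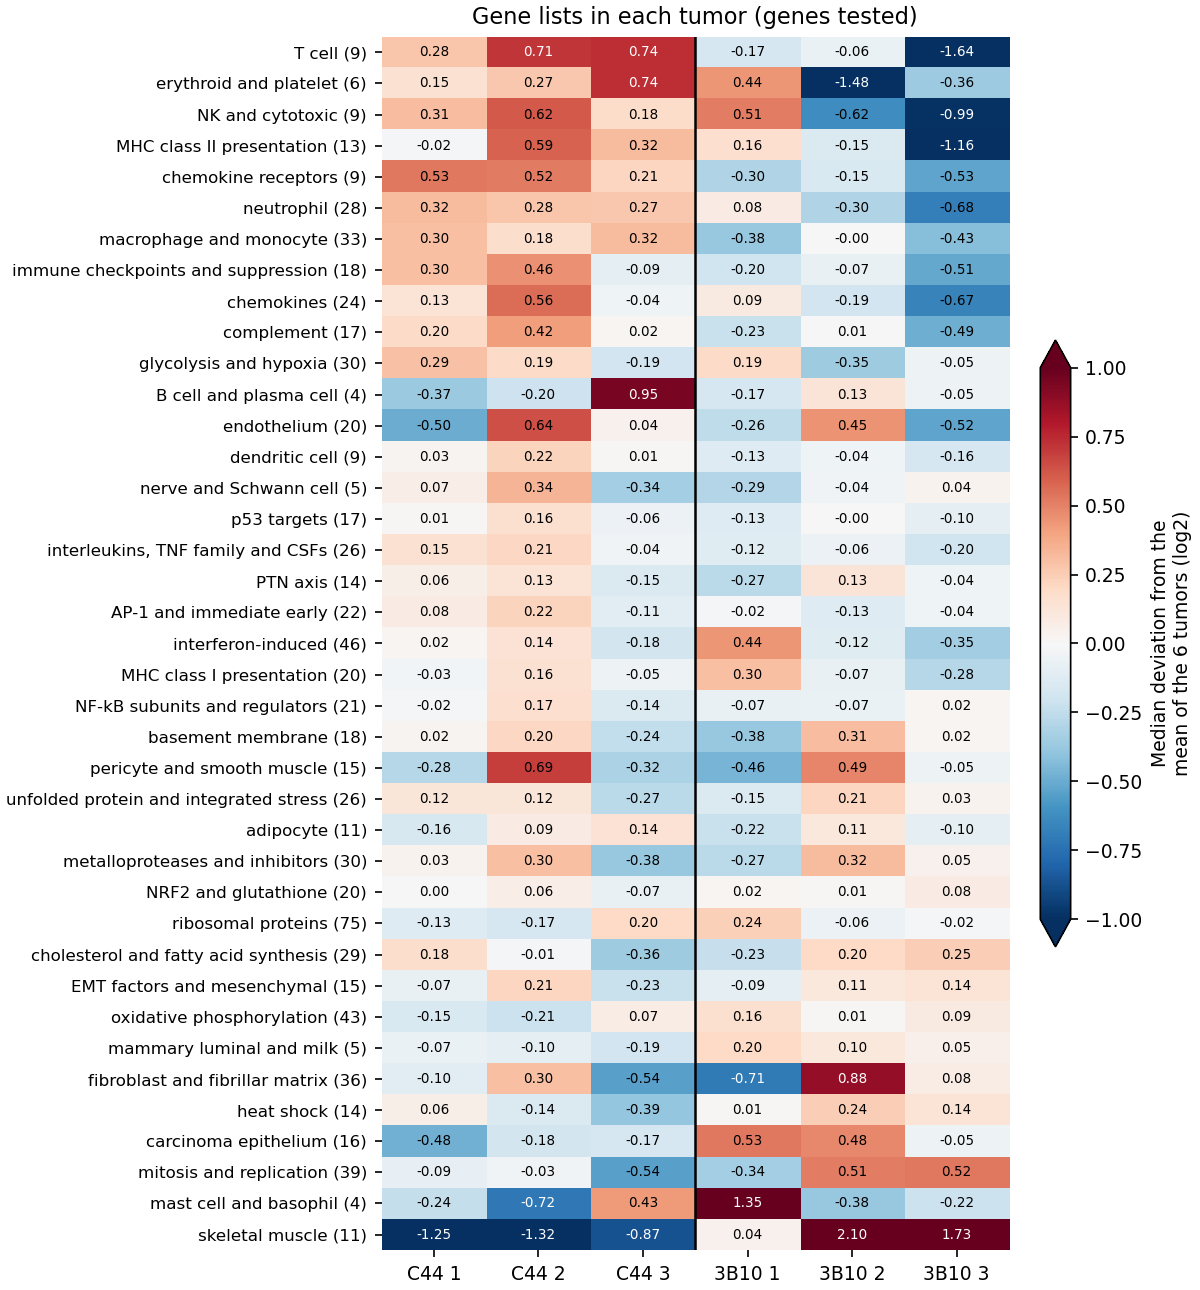
Median deviation of each gene list from the mean of the 6 tumors (log2, genes tested, their number in parentheses), for the lists with more than 2 genes tested, ordered by the median difference between the groups. T cell genes are at 0.28, 0.71 and 0.74 in the C44 tumors and at −0.17, −0.06 and −1.64 in the 3B10 tumors, and skeletal muscle genes are at −1.25, −1.32 and −0.87 against 0.04, 2.10 and 1.73.

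The immune lists were not lower to the same degree in each 3B10 tumor. In 3B10 3 the median deviations of T cell, MHC class II and NK genes were −1.64, −1.16 and −0.99, lower than in any other tumor. In 3B10 2 the complement list was at 0.01 and the macrophage list as close to the mean of the 6 tumors. In 3B10 1 the macrophage list was at −0.38 while the NK list was at 0.51 and the interferon-induced list at 0.44. The C44 tumors had positive deviations in the T cell, neutrophil, macrophage and chemokine receptor lists, and all 3 3B10 tumors had negative ones in the T cell and chemokine receptor lists.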

How the data were processed

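RNA was measured in 6 4T1 tumors, 3 with C44 and 3 with 3B10, grouped by the labels. Upstream, the authors used paired-end sequencing, Hisat2 and StringTie against mm10, Rsubread for counts, and edgeR. They deposited log2 values, and the step that made these log2 values and the filter on genes are not given in the sources used here. The 4T1 values have no steps of whole reads and are on a scale of their own, so only the 6 tumors were compared with each other, and edgeR was not run.

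R 4.3.3 and limma 3.58.1 were used to fit the deposited values, with a trend in eBayes and its robust option, over genes with a level of at least 1 in at least 3 tumors, with Benjamini-Hochberg adjustment. The test was also tried on simulated data, and no result of that trial is used here. The 40 gene lists were written by hand. The members and lists were chosen with earlier results of these data known, and lists are described by counts and medians, with no test.

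Named genes are, in each direction, the 12 with the largest difference at an unadjusted p under 0.05, no overlap and a group mean of at least 1; of each list the 3 most abundant and the 3 with the smallest p; and the PTN genes with a few others. Not every gene that met the rule is described. Genes outside it are named as chosen after their values were seen.

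Alternatives were other filters, pseudocounts of 1 and 0.1, quantile normalization, median centring, eBayes without trend and not robust, arrayWeights, the replicate number as a block with or without a correction for GC content and length by splines with 5 degrees of freedom, and leaving out each tumor. Leaving out C44 3 and 3B10 1, a term for this pair, and list medians over genes with a level of at least 1 in all 6 tumors were added after seeing the data. Gene positions and lengths are from GENCODE M21 (GRCm38). Python 3.11.15, numpy 2.4.6, pandas 2.3.3 and matplotlib 3.10.9 were used for tables and plots.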

Additional observations from a re-analysis of the deposited data

How the results depend on the processing

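Among the settings chosen before the data were seen, arrayWeights moved the counts at an unadjusted p under 0.05 most, to 911 lower and 1113 higher genes. It called 1 gene at an adjusted p under 0.05. Leaving out 1 tumor gave 0–2 genes at an adjusted p under 0.05, 194–767 lower and 176–700 higher genes. The lowest counts came without 3B10 3, the highest lower count without C44 3 and the highest higher count without 3B10 1. Leaving out both tumors that stood apart gave 800 and 1038, and a term for this pair 754 and 914, both chosen after seeing the data. The cause was not tested. The 355 lower and 364 higher genes kept their direction under every setting in which they were tested. They were chosen by p in these same tumors, so this could hardly come out otherwise and is no support for them. Without 3B10 3, 164 and 134 of them again had an unadjusted p under 0.05 in the same direction. The filter at a level of 4 left 342 and 352 of them. A replicate block, by number, gave 0, 347 and 259, but tumors of the same number were no more alike, as their correlations of deviations were −0.327, 0.436 and −0.253. Of 741 values of list medians, 27 moved by more than the spread of the list within groups, and others near 0 changed sign.

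Genes with differences near 0 or set by a single tumor changed sign. Leaving out 1 tumor, the ranges were −0.00217 (without C44 3) to 0.20 in Sdc1, −0.23 to 0.0779 in Gpc1, −0.29 to 0.0557 in Csf1, −0.16 to 0.0917 in Nfkbia, −0.41 to 0.75 in Gzmc, −0.14 to 0.0907 in Pkm, −0.0408 to 1.06 in Col1a1, −2.95 to 0.32 in Igkc, −0.19 to 1.68 in Tpsb2 and −0.61 to 1.69 in Tpsab1. Without the pair the values were 0.0207 in Nrp1, 0.0303 in Gpc1, −0.27 in Gzmc, −0.21 in Pkm, 0.55 in Igkc and −0.0492 in Tpsab1. With arrayWeights they were −0.16 in Gzmc, −0.14 in Pkm and 0.23 in Igkc, and with the replicate block and the correction for GC content and length −0.0365 in Pkm.

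With 3 tumors per group, of which 1 in each stood apart, sequencing depth unknown and values that cannot be traced to reads, no gene difference is established here. The text describes levels in bulk tissue, in tumors at a single time point, and cannot separate cell number from RNA per cell. Many marker genes of the cell types named were not analysed here.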

Other observations

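Several genes stood out in a single tumor, whatever its group, and were chosen after their values were seen. Igkc, the kappa light chain of antibodies, was at 8.54 in C44 3, at 3.62 in 3B10 3 and between 2.00 and 2.76 in the other 4 tumors. The mast cell tryptases Tpsb2 and Tpsab1 were at 5.56 and 5.59 in 3B10 1, at 3.67 and 3.46 in C44 3, and below 3 in the other 4 tumors. Mcpt8, a protease of basophils, differed by group instead: it was at 3.73, 3.77 and 2.96 with C44 and at 4.03, 4.56 and 4.94 with 3B10, without overlap (difference 1.02, SE 0.30).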
